A study of Mus musculus with 12 samples.

Results

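Rab GTPases are the small membrane switches that give each compartment of the secretory and endocytic pathways its identity. The genes described here are the 59 rows of the deposited table whose mouse symbol is Rab followed by a number and at most 1 letter, out of 32721 genes. Of these, 47 lay at least 1 log2 unit above the floor of the table on average and were tested, and the other 12 were too low to test. The cells were mouse embryonic fibroblasts of a Vps15f/f line, in which both Vps15 alleles are floxed in every group. The gene Pik3r4 encodes Vps15, a regulatory partner of the kinase in class 3 PI3K, the lipid kinase complex that makes PI3P on endosomes and forming autophagosomes. Vps15KO cells had received adeno-CRE, whose recombinase cuts out floxed DNA, and WT cells had received adeno-GFP. That is how the treatment is labelled, while the library names read pLEX_CRE and pLEX_GFP, so the vector is not settled by the labels. Every Vps15KO library had CRE and every WT library had GFP. Effects of CRE or GFP themselves therefore cannot be told apart from loss of Vps15, and Vps15KO stands below for all of these together. The cells were taken 5 days after transduction, either following 2 h in EBSS, a salt solution with glucose but neither amino acids nor serum, or in basal medium. The growth medium was high-glucose DMEM (4.5 g/L) with 10% serum, and plates had reached 90% confluence, so the step to EBSS removes serum as well as amino acids. The glucose level of EBSS is not given in the sources used here, so glucose and other components of the medium may change as well. Poly-A RNA was sequenced from 3 libraries of each of 4 groups: Vps15KO in EBSS, WT in EBSS, Vps15KO in basal medium and WT in basal medium. Whether the line is a single clone, and whether replicates came from separate cultures, is not given in the labels. P-values therefore measure the spread between these libraries, which may be technical.

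A Rab protein is loaded with GTP by an exchange factor (GEF), sits on its membrane through prenyl tails and then binds effectors such as tethers, motors and lipid kinases. A GTPase-activating protein (GAP) switches it off, and the protein returns to the cytosol. Rab5 marks early endosomes and recruits class 3 PI3K there, Rab7 marks late endosomes, lysosomes and maturing autophagosomes, Rab11 marks recycling endosomes, and Rab1, Rab2 and Rab6 act between the ER and the Golgi.

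The libraries held 21278921 to 21698584 reads in genes. By counting error alone, 0 reads in a library is compatible with up to 3. Pik3r4 was lower in Vps15KO libraries in both media, at 623, 602 and 672 normalized counts in Vps15KO EBSS libraries against 959, 891 and 834 in WT EBSS libraries, and at 633, 699.8 and 640.3 in Vps15KO basal libraries against 864, 879 and 884 in WT basal libraries. The log2 differences were -0.48 ± 0.07 in EBSS and -0.40 ± 0.07 in basal medium (limma, adjusted p = 1.03e-05 and 8.41e-05). A normalized count is the number of reads divided by the size factor of the library. The exons that CRE removes are not given in the sources used here, so the level of the whole transcript is only a partial check. WT basal replicate 2 stood apart from its group (chi-square per gene of 22.1 and 21 when set beside replicates 1 and 3, and 3.24 between these), and so did WT EBSS replicate 1 (8.45 and 12.2, against 3.92). Of 15 fibroblast markers 14 passed the filter, with summed levels of 309632 to 324540 in Vps15KO EBSS, 553486 to 588792 in WT EBSS, 311631 to 314760 in Vps15KO basal and 618038 to 646901 in WT basal libraries. The 8 macrophage and leukocyte markers summed to 2682 to 3357 in Vps15KO EBSS, 856 to 946 in WT EBSS, 3016 to 3895 in Vps15KO basal and 960.1 to 1000.1 in WT basal libraries. Nearly all of this was the lysosomal protein gene Cd68, while the leukocyte gene Ptprc averaged 0.986 counts in Vps15KO EBSS and 0 in WT basal libraries. The 7 endothelial markers summed to 114 to 134 counts in Vps15KO EBSS, 24.5 to 38.2 in WT EBSS, 112 to 125 in Vps15KO basal and 33.9 to 46.1 in WT basal libraries. Most of this was Vwf, at 98.2, 25.3, 95.3 and 34.9 counts on average in the same order. The next highest in Vps15KO EBSS libraries, Cdh5, averaged 11.5 counts there and 3.38 in WT EBSS libraries. The 8 epithelial markers reached at most 41.3 counts in sum in any library. The 7 muscle markers summed to 739 to 835 in Vps15KO EBSS, 1307 to 1338 in WT EBSS, 865 to 1073 in Vps15KO basal and 1780 to 2589 in WT basal libraries, nearly all of it Tnnt3, while Myog was at 0 in all libraries. The adipocyte markers summed to 415 to 471 in Vps15KO EBSS, 519.9 to 549 in WT EBSS, 587 to 617 in Vps15KO basal and 638 to 791 in WT basal libraries, mostly Fabp4. The 6 neural and glial markers reached at most 117 counts in sum, in a Vps15KO basal library. The part of these differences in the Rab results was not tested.

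Across the family, Rab transcripts differed in both directions with EBSS and with Vps15KO, most of them by less than 0.5 on the log2 scale. After EBSS in Vps15KO cells 15 of the 47 rose and 13 fell (limma, adjusted p under 0.05), where of 14279 genes in the test 25.9% rose and 26.1% fell, 52% in all. In WT cells EBSS raised 22 and lowered 16, where 31.4% of all genes were higher and 31.3% lower (62.7% in all). Vps15KO in basal medium had 19 higher and 9 lower, against 29.3% and 29.2% of all genes (58.5% in all). Vps15KO in EBSS had 13 higher and 10 lower, against 29.4% and 27.8% (57.2% in all). The EBSS effect itself differed between genotypes for 9 Rab genes, 3 with a more positive effect in Vps15KO and 6 with a more negative one, where 9.55% and 8.24% of all genes did so (17.8% in all). The 3 libraries of one group did not overlap the 3 of the other for 38 Rab genes with EBSS in Vps15KO (63% of all genes), 38 with EBSS in WT (65.2%), 28 for Vps15KO in basal medium (61.7%) and 30 for Vps15KO in EBSS (66.3%). Called differences of at least 0.5 on the log2 scale numbered 4 for EBSS in Vps15KO (17.9% of all genes), 14 for EBSS in WT (27.6%), 8 for Vps15KO in basal medium (24.4%), 5 for Vps15KO in EBSS (24.6%) and 3 for the difference of EBSS effects (8.6%). The comparisons share groups of libraries and are not independent of each other. Removing trends with transcript length and GC content moved many EBSS differences, and some between genotypes, by over 1.5 times. In bulk RNA, fewer cells that make a transcript and less of it per cell cannot be told apart.

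**Figure D1:**
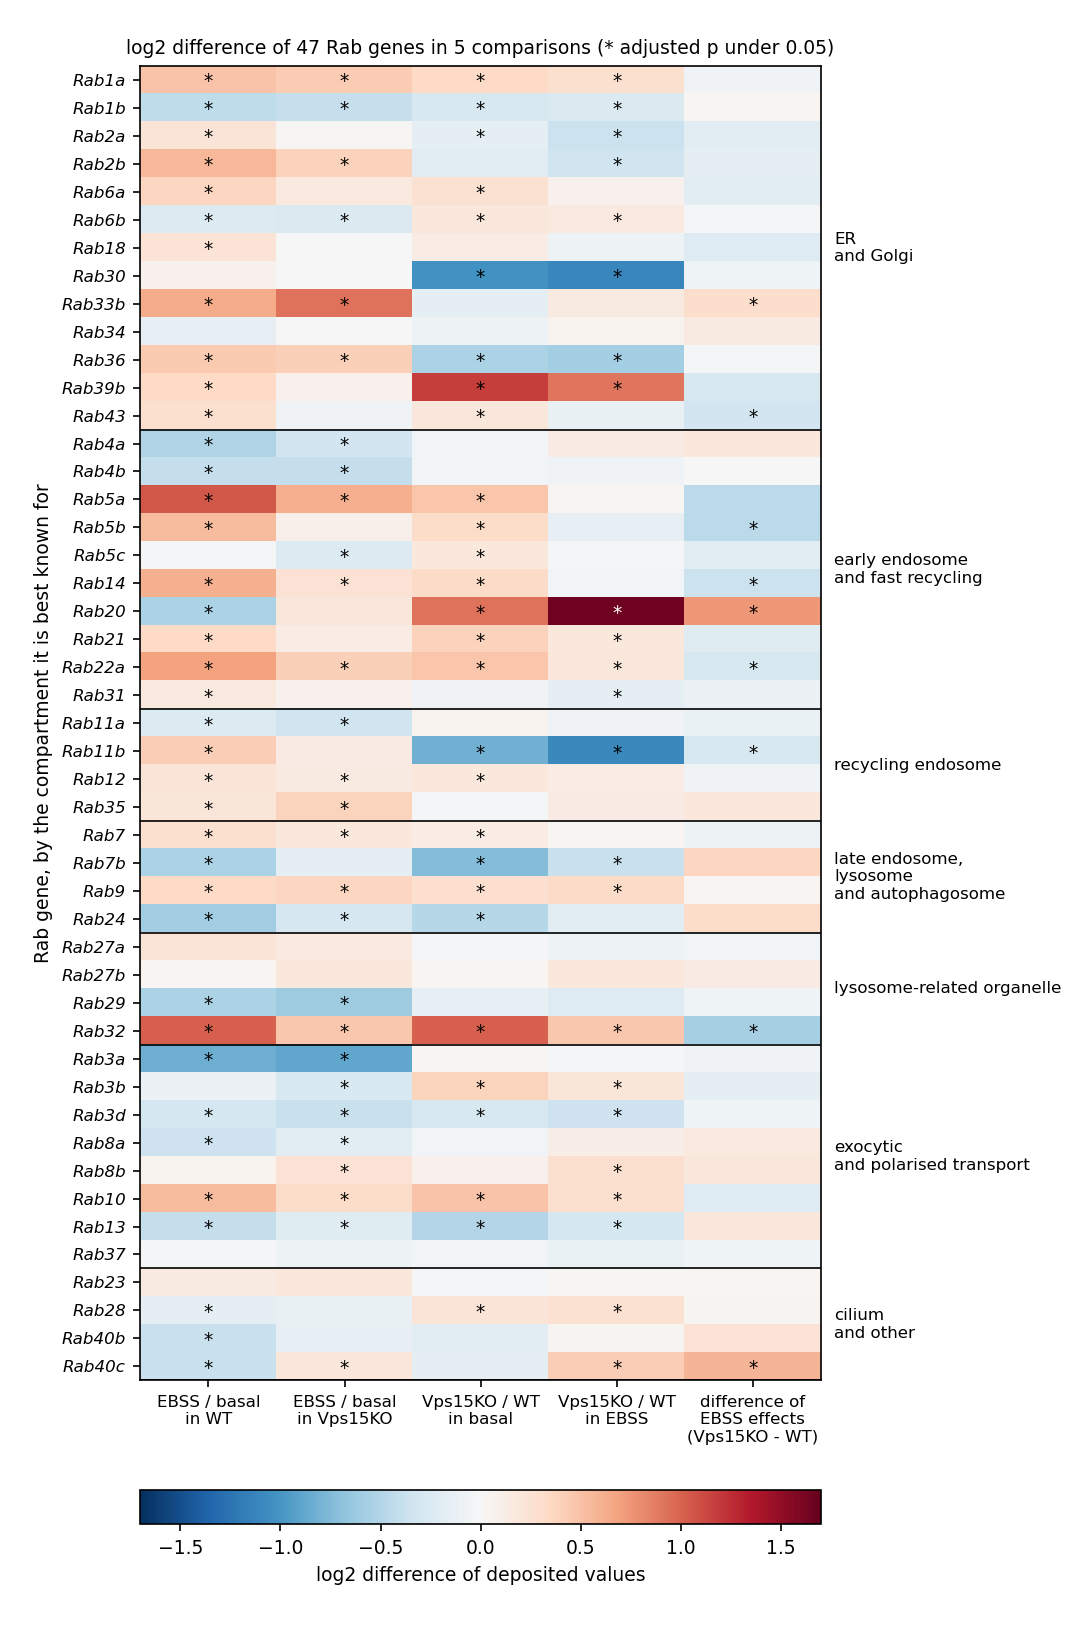
Log2 differences of the 47 tested Rab genes (rows, grouped by the compartment each is known for) in 5 comparisons (columns), with red for higher, blue for lower and a star for adjusted p under 0.05 (limma). The strongest colours are Rab20 (1.65) on the higher side and Rab30 (-1.11) and Rab11b (-1.10) on the lower side, all for Vps15KO in EBSS.

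The median log2 difference of the tested Rab genes was 0.07 for EBSS in Vps15KO and 0.15 for EBSS in WT, where the medians of all genes tested were -0.02 in each. For Vps15KO it was 0.03 in basal medium and 0.03 in EBSS, against -0.01 and -0.00076 for all genes. Taken as a share of all reads, Rab transcripts held 0.430 ± 0.00105% in Vps15KO EBSS, 0.420 ± 0.00541% in WT EBSS, 0.403 ± 0.00674% in Vps15KO basal and 0.373 ± 0.0185% in WT basal libraries (SD, n = 3 each). Every EBSS library lay above every basal library of either genotype on this measure, and WT basal replicate 2 was lowest of all at 0.352%.

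Levels of different genes were compared per length. In WT basal libraries the order of normalized counts per kilobase of transcript began with Rab7 (3486 ± 91.3, SD, n = 3), Rab2a (2467 ± 113), Rab1b (2301 ± 290.1), Rab1a (2066 ± 205) and Rab5c (1886 ± 48.1). Rab2a and Rab1b did not differ beyond their spread, nor did Rab1b and Rab1a, nor Rab1a and Rab5c. The order ended with Rab40b (34.4), Rab27a (32.3), Rab7b (19.4) and Rab37 (7.04). Rab7 led in all 4 groups, and Rab1a stood in the second place in the other 3 groups, ahead of Rab2a, although in WT EBSS libraries the levels of both (2894 ± 70.9 for Rab1a, 2876 ± 46.0 for Rab2a) did not differ beyond their spread. Rab20 and Rab5a moved far in this order. Rab20 had 206 per kilobase in Vps15KO EBSS against 52.7 in WT EBSS, and 177 in Vps15KO basal against 85.2 in WT basal cells. Rab5a, the scarcest Rab5 gene in basal medium, had 879 in Vps15KO EBSS and 861 in WT EBSS, against 571 in Vps15KO basal and 419 in WT basal cells.

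**Figure D2:**
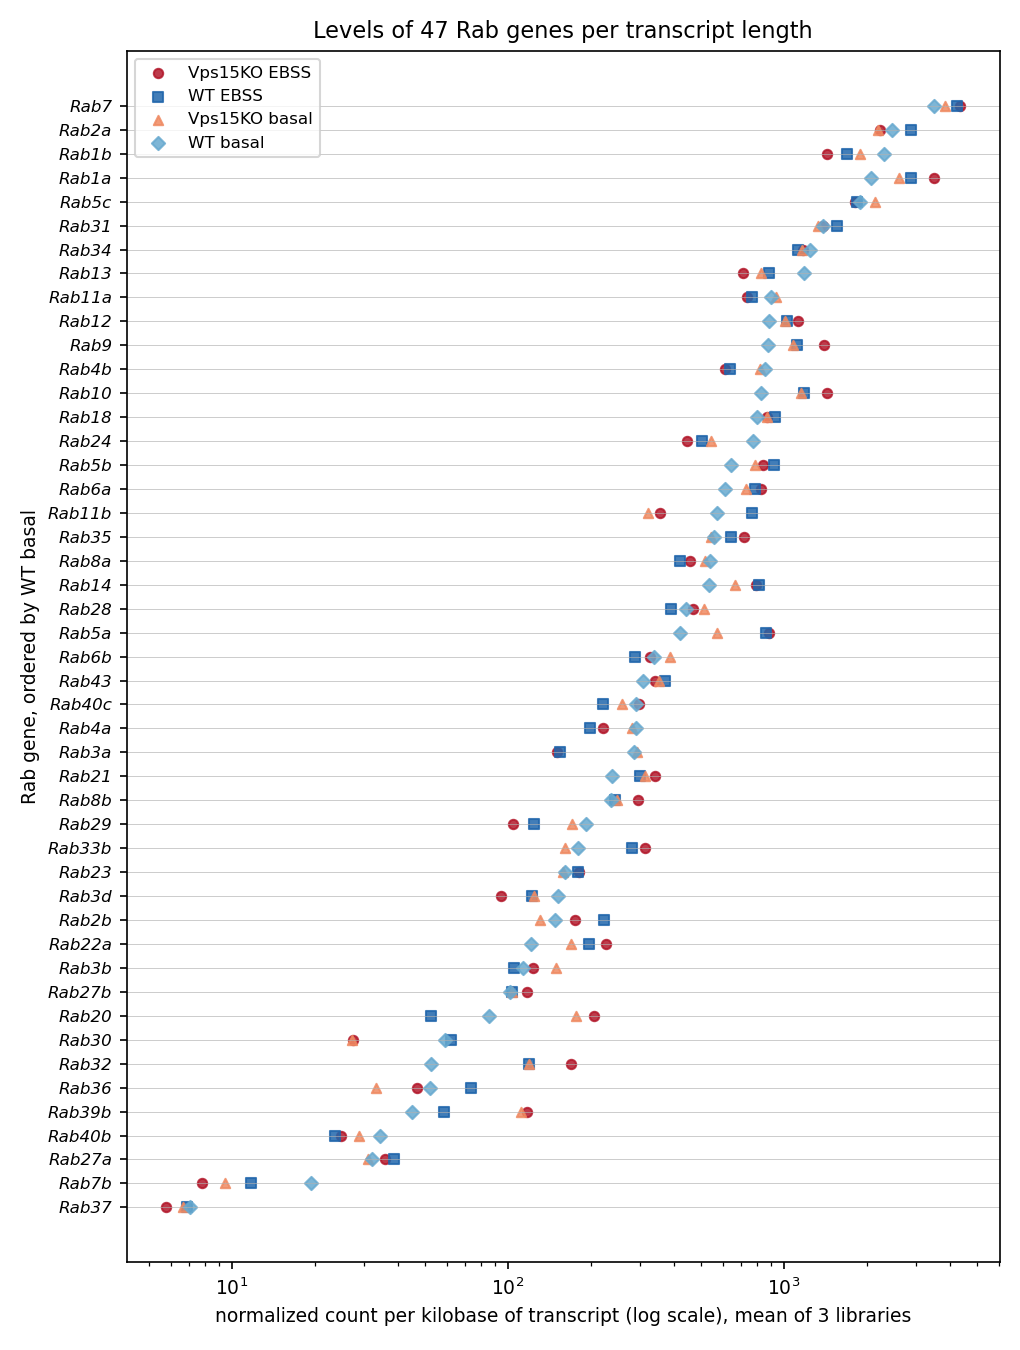
Mean normalized count per kilobase of the longest transcript (horizontal log axis, n = 3 libraries) for 47 Rab genes, ordered by their level in WT basal cells and marked by group. Levels run from 7.04 for Rab37 to 3486 for Rab7 in WT basal cells, and the groups are visibly apart for Rab20, Rab32, Rab39b, Rab7b, Rab30 and Rab11b.

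The 12 Rab genes below the filter are known mostly from specialised cells. Rab19 had no read in any library. Rab17, Rab25, Rab26 and Rab15, which act in epithelia, neurons or secretory cells, reached at most 1.02, 8.47, 1.96 and 1.98 normalized counts in any library. Rab3c reached 6.04, Rab33a 6.35, Rab9b 8.02 and Rab42 4.90 counts. Rab38, which works with Rab32 in pigment cells, reached 3.01, Rab39 reached 3.06 and Rab44 reached 2.04 counts. No difference between groups could be detected at these levels.

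Promoter windows are shown for 4 Rab genes, picked as examples with their values known: Rab5a for its rise in EBSS, Rab20 for its difference between genotypes, Rab32 for its rise under both EBSS and Vps15KO, and Rab11b for its fall in Vps15KO. Each runs from 250 bases before to 50 after the annotated start (RefSeq, GRCm38.p6, the assembly also called mm10), 5′ to 3′ on the strand of the gene, and capitals mark the matches to CACGTG or TGACGTCA. The windows are chr17:53478984-53479283 on the plus strand for Rab5a, and chr8:11478591-11478890 for Rab20, chr10:10558158-10558457 for Rab32 and chr17:33760437-33760736 for Rab11b on the minus strand.
Rab5a: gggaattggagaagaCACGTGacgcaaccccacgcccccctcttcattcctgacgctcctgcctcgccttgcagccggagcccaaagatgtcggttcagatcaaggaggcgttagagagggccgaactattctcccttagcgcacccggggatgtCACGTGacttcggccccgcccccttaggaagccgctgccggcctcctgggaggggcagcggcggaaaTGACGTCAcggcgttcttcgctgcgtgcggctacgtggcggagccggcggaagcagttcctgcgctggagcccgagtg
Rab20: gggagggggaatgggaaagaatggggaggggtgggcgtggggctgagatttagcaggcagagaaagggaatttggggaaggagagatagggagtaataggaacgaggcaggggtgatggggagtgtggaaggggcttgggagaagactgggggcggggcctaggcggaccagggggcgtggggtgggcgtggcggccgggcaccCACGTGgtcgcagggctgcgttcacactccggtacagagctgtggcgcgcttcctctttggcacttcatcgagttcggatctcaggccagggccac
Rab32: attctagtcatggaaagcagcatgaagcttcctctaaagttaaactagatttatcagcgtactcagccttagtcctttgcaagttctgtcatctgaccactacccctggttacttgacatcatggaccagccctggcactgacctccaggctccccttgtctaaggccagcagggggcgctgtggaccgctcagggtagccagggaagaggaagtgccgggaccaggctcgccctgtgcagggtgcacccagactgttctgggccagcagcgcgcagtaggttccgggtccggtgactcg
Rab11b: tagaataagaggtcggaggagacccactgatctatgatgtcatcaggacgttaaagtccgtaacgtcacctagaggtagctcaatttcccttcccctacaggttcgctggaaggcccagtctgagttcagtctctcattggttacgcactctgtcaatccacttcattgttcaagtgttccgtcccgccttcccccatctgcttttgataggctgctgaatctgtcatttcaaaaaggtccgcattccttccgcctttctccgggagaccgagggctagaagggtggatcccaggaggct

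4 motifs were searched on both strands of each window: CACGTG, the E-box core shared by TFEB, MYC and clock factors; TTGCATCA, the amino acid response element bound by ATF4; TGTTTAC, bound by FOXO and other forkhead factors; and TGACGTCA, the cAMP response element. A window was found for 48 Rab genes, and matches are descriptions of letters, not binding sites. CACGTG stood in the windows of 6 Rab genes (Rab5a, Rab20, Rab21, Rab23, Rab24 and Rab27a), or 12.5%, where 8.09% of 27025 genes held it. The Rab5a window had it at -235 and -95 from the start and TGACGTCA at -28, and the Rab20 window had CACGTG at -46. TGACGTCA was also found for Rab25 (4.17% of the Rab genes, 2.03% of all genes), and TGTTTAC for Rab39b and Rab43 (4.17% and 4.05%). TTGCATCA was in none of the Rab windows and in 1.03% of all genes. The windows of Rab32 and Rab11b held no match to these 4 sequences.

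Among early endosome and fast recycling Rab genes, 10 of which were tested, 3 were higher and 1 lower in Vps15KO cells in EBSS (29.4% and 27.8% of all genes), and 7 were higher and none lower in basal medium (29.3% and 29.2%). EBSS raised 3 and lowered 3 in Vps15KO cells (25.9% and 26.1% of all genes), and raised 6 and lowered 3 in WT cells (31.4% and 31.3%). Without WT basal replicate 2 the count for Vps15KO in basal medium was 6 higher and none lower (58.1% of all genes called in either direction). With length and GC trends removed it was 7 higher and 1 lower (61.7%), and Vps15KO in EBSS had 2 higher and 2 lower (61.3%). In that setting EBSS raised 3 and lowered 2 in Vps15KO cells (53%), and raised 5 and lowered 1 in WT cells (62%). The 3 Rab5 genes, whose products tether and fuse early endosomes, were all higher in Vps15KO in basal medium, while with EBSS they did not share a direction.

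Rab5a (chromosome 17, 53479234 to 53507678) had 3069.9, 2831 and 2611 normalized counts in Vps15KO EBSS, 2602, 2816 and 2914 in WT EBSS, 1926, 1713 and 1884 in Vps15KO basal and 1609, 930.5 and 1510.5 in WT basal libraries. All EBSS libraries lay above all basal ones, WT basal replicate 2 was far below its group, and the genotypes overlapped in EBSS. EBSS raised Rab5a by 0.62 ± 0.13 (log2 difference ± SE, adjusted p = 0.000837) in Vps15KO cells and by 1.06 ± 0.13 (adjusted p = 1.71e-06) in WT cells, where the mean was 2.06 times the basal mean. Vps15KO was higher by 0.48 ± 0.13 in basal medium (adjusted p = 0.00499), which became 0.23 (adjusted p = 0.00494) without WT basal replicate 2, and the log2 difference in EBSS was 0.03 ± 0.13 (adjusted p = 0.87). The difference of EBSS effects was -0.45 ± 0.19 (adjusted p = 0.111). It passed the threshold without WT basal replicate 1 (-0.59, adjusted p = 0.0222) and without both WT libraries that stand apart (-0.25, adjusted p = 0.0406).

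Rab5b had 2657, 2644 and 2686 normalized counts in Vps15KO EBSS, 2758, 3020.2 and 3033 in WT EBSS, 2572, 2325 and 2621 in Vps15KO basal and 2369, 1557 and 2188 in WT basal libraries. The WT EBSS libraries were above all others, and WT basal replicate 2 was again the lowest. The EBSS difference of Rab5b was 0.09 ± 0.10 in Vps15KO cells (adjusted p = 0.501), and EBSS raised it by 0.54 ± 0.10 in WT cells (adjusted p = 0.0002). These effects differed by -0.45 ± 0.15 (adjusted p = 0.0407), a call lost on leaving out any of 7 single libraries and -0.27 (adjusted p = 0.0158) without WT basal replicate 2. The call for Vps15KO in basal medium, 0.31 ± 0.10 (adjusted p = 0.015), was lost without WT basal replicate 2 (0.13, adjusted p = 0.0564) and without Vps15KO basal replicate 1 (0.30) or replicate 3 (0.28).

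Rab5c, the Rab5 gene with the highest level per length in every group, went the other way in EBSS. It had 3501, 3504 and 3674 normalized counts in Vps15KO EBSS, 3551, 3717 and 3572 in WT EBSS, 4204, 4248 and 4125 in Vps15KO basal and 3699, 3811 and 3623 in WT basal libraries. The Vps15KO basal libraries stood above all others, which overlapped. Rab5c rose by 0.17 ± 0.05 in Vps15KO in basal medium (adjusted p = 0.00819) and fell by 0.23 ± 0.05 with EBSS in Vps15KO cells (adjusted p = 0.00114), or by 0.13 after removing trends with length and GC, while the EBSS difference in WT was -0.04 ± 0.05 (adjusted p = 0.546) and turned to 0.14 once trends with transcript length and GC content were removed.

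Rab20, a gene of maturing endosomes and phagosomes that hypoxia is known to induce, had the largest genotype difference of the family in EBSS. It lies on chromosome 8 (11453390 to 11478640) and had 286, 309.7 and 263 normalized counts in Vps15KO EBSS, 68.4, 69.2 and 82.6 in WT EBSS, 223, 257 and 259 in Vps15KO basal and 129, 97.4 and 129 in WT basal libraries. Every Vps15KO library lay above every WT library, and in WT cells the EBSS libraries lay below the basal ones. Vps15KO was higher by 1.65 ± 0.11 in EBSS (adjusted p = 3.65e-10), 3.90 times the WT mean, and by 0.92 ± 0.11 in basal medium (adjusted p = 9.06e-07), 2.08 times. The EBSS difference of Rab20 was 0.20 ± 0.11 in Vps15KO cells (adjusted p = 0.133), and EBSS lowered it in WT cells (log2 difference -0.54 ± 0.11, adjusted p = 0.000277). The effects differed by 0.74 ± 0.15 (adjusted p = 0.00254), between 0.65 and 0.90 over the alternatives tried. With length and GC trends removed the fall in WT was -0.28 (adjusted p = 0.0532), below the threshold. The divergent transcript E230013L22Rik, which overlaps Rab20, averaged 35.5 counts in Vps15KO EBSS, 30.5 in WT EBSS, 17.95 in Vps15KO basal and 14.1 in WT basal libraries.

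Rab22a and Rab14 followed EBSS in both genotypes. Rab22a, which works at early and recycling endosomes, had 1731, 1581 and 1548 normalized counts in Vps15KO EBSS, 1411, 1369 and 1451 in WT EBSS, 1244, 1194 and 1204 in Vps15KO basal and 835, 867 and 898 in WT basal libraries, so that no group overlapped another. EBSS raised it by 0.41 ± 0.06 in Vps15KO (adjusted p = 2.27e-05) and 0.69 ± 0.06 in WT cells (adjusted p = 2.29e-08), or by 0.16 in Vps15KO and 0.41 in WT with length and GC trends removed. Vps15KO was higher by 0.47 ± 0.06 in basal medium (adjusted p = 2.77e-06) and by 0.20 ± 0.06 in EBSS (adjusted p = 0.0106), the last of which was lost without Vps15KO EBSS replicate 1 (0.15, adjusted p = 0.0733). Its difference of EBSS effects, -0.28 ± 0.09 (adjusted p = 0.0315), was lost on leaving out any of 8 single libraries (adjusted p up to 0.0871).

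Rab14, which acts between the trans-Golgi network and endosomes, had 3905, 4072 and 3899.7 normalized counts in Vps15KO EBSS, 3977, 4199 and 4050.3 in WT EBSS, 3409, 3290.3 and 3317 in Vps15KO basal and 2885, 2306 and 2834 in WT basal libraries. The genotypes overlapped in EBSS and were apart in basal medium. Its EBSS effects were 0.24 ± 0.07 in Vps15KO (adjusted p = 0.00763) and 0.61 ± 0.07 in WT (adjusted p = 6.87e-07), and their difference of -0.37 ± 0.10 (adjusted p = 0.0167) passed the threshold in all alternatives, with adjusted p up to 0.0494. Its rise with EBSS in Vps15KO was lost with length and GC trends taken out (0.05, adjusted p = 0.39) and under quantile normalization (0.16, adjusted p = 0.0797). Vps15KO was higher by 0.32 ± 0.07 in basal medium (adjusted p = 0.000721). Without length and GC trends the rise in WT was 0.34 and the difference in basal medium 0.17, both still called.

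The remaining early endosome genes moved less. Rab21, which carries integrins into the cell, was higher in Vps15KO in basal medium (0.39 ± 0.08, adjusted p = 0.000241) and rose with EBSS in WT (0.34 ± 0.08, adjusted p = 0.000943). Its rise in Vps15KO under EBSS (0.18 ± 0.08, adjusted p = 0.0494) was lost on leaving out any of 9 single libraries, and its rise in WT was lost once length and GC trends were taken out (0.09, adjusted p = 0.143). The difference in basal medium was then 0.23. Rab4a and Rab4b, of the fast recycling route, fell with EBSS in both genotypes, with log2 differences of -0.32 ± 0.09 in Vps15KO and -0.51 ± 0.09 in WT cells for Rab4a and of -0.41 ± 0.07 in Vps15KO and -0.40 ± 0.07 in WT cells for Rab4b (adjusted p between 6.23e-05 and 0.00484). With length and GC trends removed the Rab4a fall in Vps15KO (-0.18, adjusted p = 0.0715) and the Rab4b fall in WT (-0.12, adjusted p = 0.0654) were lost, and the Rab4a fall in WT was -0.31 and the Rab4b fall in Vps15KO -0.23. Rab31 rose with EBSS in WT by 0.17 ± 0.05 (adjusted p = 0.0104, lost under quantile normalization at 0.04, adjusted p = 0.496, and after removing length and GC trends at 0.10, adjusted p = 0.0593) and was lower in Vps15KO under EBSS (-0.17 ± 0.05, adjusted p = 0.0117).

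**Figure D3:**
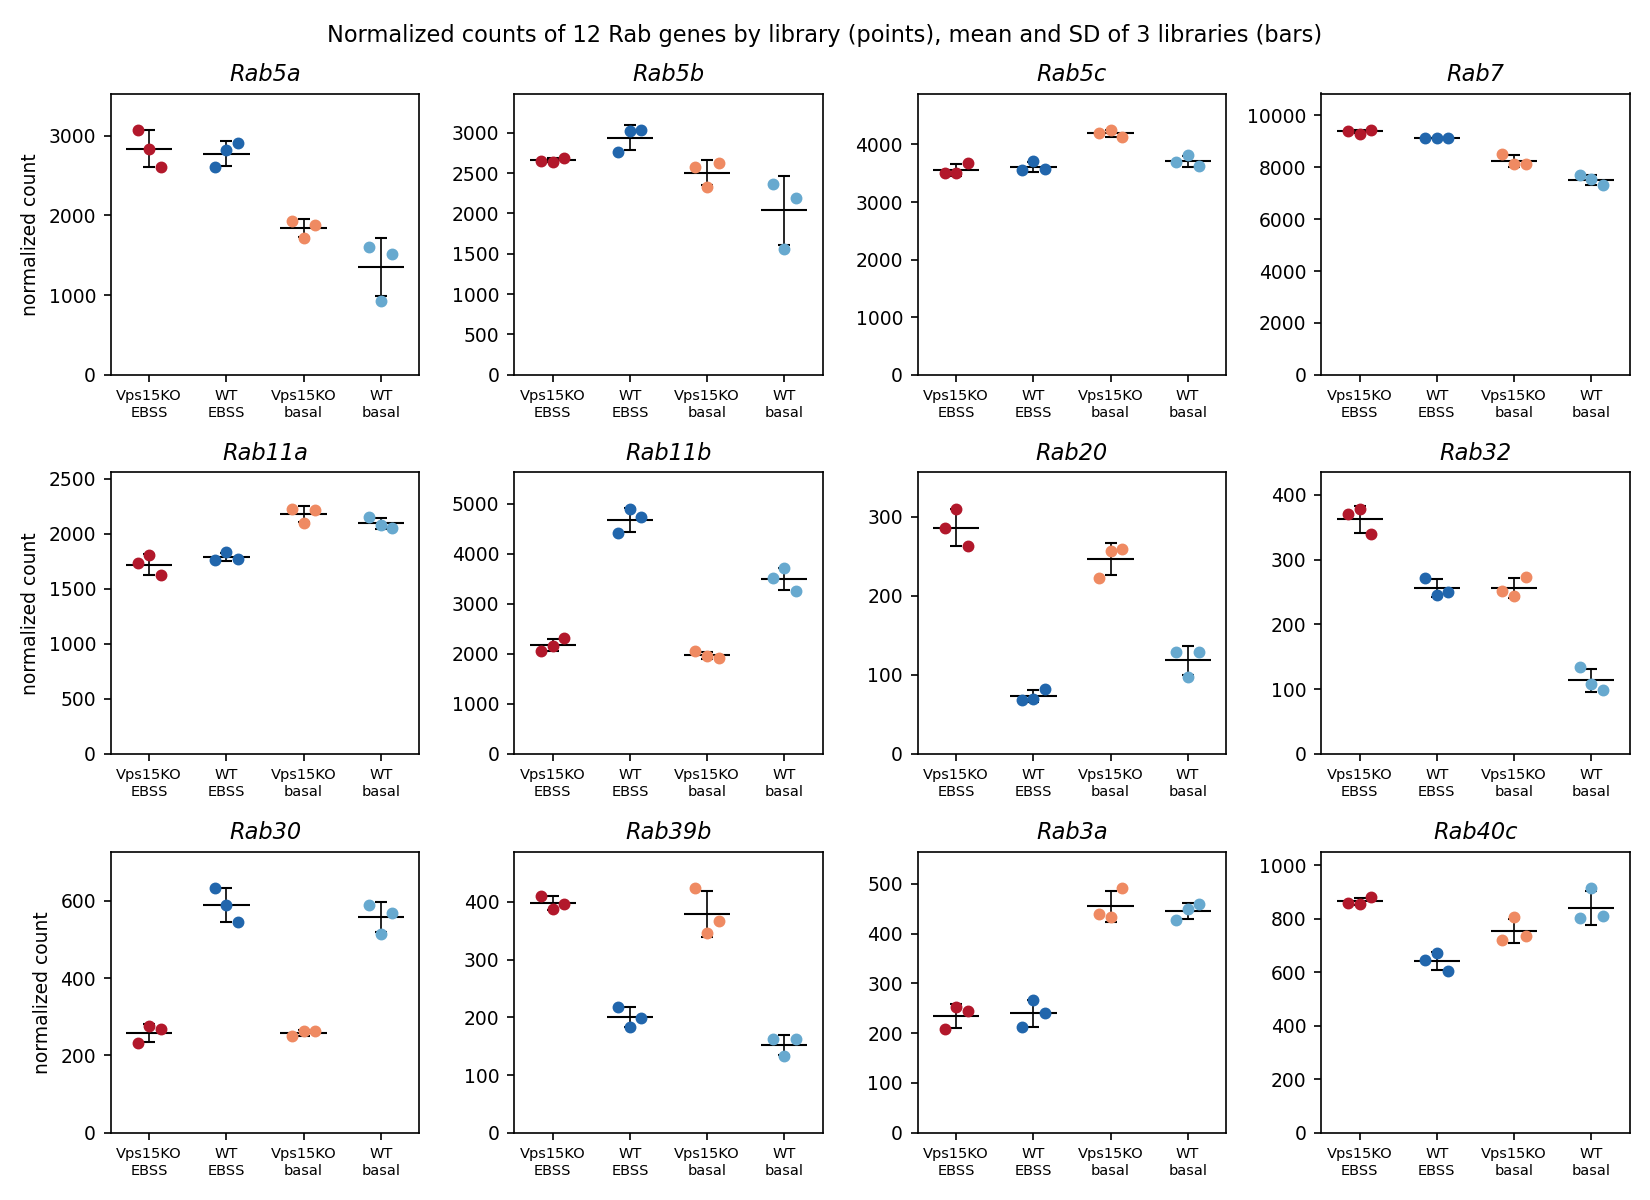
Normalized counts (vertical axes from 0) of 12 Rab genes in each of 12 libraries (points), with the mean (line) and SD (bars) of each group of 3. Rab20 and Rab39b are higher and Rab30 and Rab11b lower in Vps15KO in both media, Rab5a is high in all EBSS libraries, and WT basal replicate 2 is the low point of Rab5a and Rab5b.

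Of the 4 recycling endosome genes tested, Rab11b gave the clearest difference. Rab11b (chromosome 17, 33742484 to 33760486) had 2061, 2157 and 2307 normalized counts in Vps15KO EBSS, 4411, 4895 and 4733 in WT EBSS, 2049, 1957 and 1910.1 in Vps15KO basal and 3527, 3708 and 3265 in WT basal libraries. Every Vps15KO library lay below every WT library. Vps15KO was lower, with a log2 difference of -1.10 ± 0.06 in EBSS (adjusted p = 1.05e-10), 46.5% of the WT mean, and of -0.82 ± 0.06 in basal medium (adjusted p = 5.5e-09), 56.3%. The EBSS difference of Rab11b was 0.14 ± 0.06 in Vps15KO (adjusted p = 0.0807, and 0.0293 without WT basal replicate 2). EBSS raised it by 0.42 ± 0.06 in WT (adjusted p = 2.05e-05), or 0.17 with length and GC trends removed. The difference of these effects, -0.28 ± 0.09 (adjusted p = 0.0423), was lost on leaving out any of 9 single libraries (adjusted p up to 0.117), with no filter on low values or with length and GC trends removed, and was -0.36 (adjusted p = 0.00132) without both WT libraries that stand apart. Gm17251, a divergent long noncoding transcript that overlaps Rab11b on the other strand, averaged 26.3 counts in Vps15KO EBSS, 105 in WT EBSS, 13.7 in Vps15KO basal and 40.8 in WT basal libraries.

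Rab11a, the close relative of Rab11b and a membrane source in autophagosome formation, did not share this pattern. It had 1732, 1806 and 1624 normalized counts in Vps15KO EBSS, 1764, 1831 and 1767 in WT EBSS, 2223, 2094 and 2215 in Vps15KO basal and 2154, 2079 and 2053 in WT basal libraries. EBSS libraries lay below basal libraries in each genotype, and the genotypes overlapped in each medium. EBSS lowered it, with a log2 difference of -0.34 ± 0.06 in Vps15KO (adjusted p = 9.54e-05) and -0.23 ± 0.06 in WT (adjusted p = 0.00232), and the log2 differences for Vps15KO were -0.06 ± 0.06 in EBSS (adjusted p = 0.434) and 0.05 ± 0.06 in basal medium (adjusted p = 0.435). Rab12 and Rab35, regulators of transferrin receptor traffic and of fast return to the plasma membrane, rose with EBSS in both genotypes, Rab12 by 0.15 ± 0.05 in Vps15KO and 0.21 ± 0.05 in WT and Rab35 by 0.38 ± 0.07 and 0.20 ± 0.07. The WT rise of Rab35 was lost without WT basal replicate 3 (0.16, adjusted p = 0.0741), and the Vps15KO rise of Rab12 without any of 4 single libraries. Under quantile normalization the WT rises were 0.11 for Rab12 (adjusted p = 0.0999) and 0.11 for Rab35 (adjusted p = 0.159), both below the threshold.

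Of the 4 late endosome and lysosome genes tested, Rab7 and Rab9 rose with EBSS in both genotypes and Rab24 fell in both. EBSS thus raised 2 and lowered 1 in Vps15KO cells (25.9% and 26.1% of all genes). In WT cells, where Rab7b fell as well, it raised 2 and lowered 2 (31.4% and 31.3%). Rab7 had 9417, 9297 and 9433 normalized counts in Vps15KO EBSS, 9123, 9148 and 9118 in WT EBSS, 8509, 8133 and 8111 in Vps15KO basal and 7707, 7557 and 7316 in WT basal libraries, and its 4 groups did not overlap. Its changes were small: EBSS raised it by 0.19 ± 0.05 in Vps15KO (adjusted p = 0.00651) and 0.28 ± 0.05 in WT (adjusted p = 0.000162), and Vps15KO was higher in basal medium by 0.13 ± 0.05 (adjusted p = 0.038), a call lost on leaving out any of 6 single libraries and after removing length and GC trends (0.09, adjusted p = 0.0847). Rab9, which returns cargo from late endosomes to the Golgi, rose in all 4 comparisons between groups, by 0.37 ± 0.06 with EBSS in Vps15KO, 0.34 ± 0.06 with EBSS in WT, 0.29 ± 0.06 for Vps15KO in basal medium and 0.32 ± 0.06 for Vps15KO in EBSS (adjusted p at most 0.000211), and it kept all these calls in all alternatives.

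Rab7b, which carries cargo from lysosomes to the trans-Golgi network, was scarce and was lower in Vps15KO cells. It had 33.4, 36.5 and 35.6 normalized counts in Vps15KO EBSS, 47.3, 48.8 and 62.2 in WT EBSS, 43.9, 43.1 and 40.2 in Vps15KO basal and 97.2, 76.2 and 88.0 in WT basal libraries. The highest Vps15KO library was below the lowest WT library. Vps15KO was lower, with a log2 difference of -0.38 ± 0.11 in EBSS (adjusted p = 0.00689) and -0.74 ± 0.11 in basal medium (adjusted p = 1.56e-05), and the EBSS difference was -0.17 ± 0.11 in Vps15KO (adjusted p = 0.204) and -0.53 ± 0.11 in WT (adjusted p = 0.000402). Rab24, linked to autophagosome clearance, was lower with EBSS in Vps15KO (-0.28 ± 0.09) and in WT (-0.59 ± 0.09) and for Vps15KO in basal medium (-0.48 ± 0.09). The fall in Vps15KO was lost once length and GC trends were taken out (-0.16, adjusted p = 0.0635), where the fall in WT was -0.38, and without either of 2 single libraries. It overlaps Prelid1 on the other strand, which had 4095 to 5389 counts on average, and whether strand was used in counting is not given in the sources used here.

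Rab32, which serves lysosome-related organelles and contacts with mitochondria, rose with EBSS and was higher in Vps15KO cells. It lies on chromosome 10 (10545039 to 10558207) and had 371, 378 and 339 normalized counts in Vps15KO EBSS, 272, 245 and 249.8 in WT EBSS, 251, 244 and 273 in Vps15KO basal and 133, 108 and 99.0 in WT basal libraries. The WT basal libraries were lowest, the Vps15KO EBSS libraries highest, and the WT EBSS and Vps15KO basal libraries overlapped between them. EBSS raised it by 0.46 ± 0.09 in Vps15KO (adjusted p = 0.000532) and 1.02 ± 0.09 in WT (adjusted p = 4.05e-08), 2.25 times the basal mean. Vps15KO was higher by 0.46 ± 0.09 in EBSS (adjusted p = 0.000401) and 1.02 ± 0.09 in basal medium (adjusted p = 4.7e-08), 2.26 times. The EBSS effects differed by -0.56 ± 0.13 (adjusted p = 0.00741), between -0.68 and -0.48 over the alternatives. Rab29, which recruits the kinase LRRK2 to membranes, had 133, 117 and 134 counts in Vps15KO EBSS, 157, 165 and 137 in WT EBSS, 189, 215 and 225 in Vps15KO basal and 228, 278 and 196 in WT basal libraries. It fell with EBSS, with log2 differences of -0.61 ± 0.11 in Vps15KO (adjusted p = 0.000172) and -0.53 ± 0.11 in WT (adjusted p = 0.000429), and the genotypes overlapped in basal medium. Rab27a and Rab27b, known for secretion of granules and exosomes, passed no test, with log2 differences of -0.09 to 0.22.

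Of 13 ER and Golgi Rab genes tested, EBSS raised 4 and lowered 2 in Vps15KO cells (25.9% and 26.1% of all genes). In WT cells it raised 9 and lowered 2 (31.4% and 31.3%). Vps15KO had 3 higher and 5 lower in EBSS (29.4% and 27.8%), and 5 higher and 4 lower in basal medium (29.3% and 29.2%). Rab30 and Rab39b, both Golgi-associated (Rab39b is linked in humans to X-linked intellectual disability), showed the largest genotype differences of this group, in opposite directions.

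Rab30 had 233, 277 and 268 normalized counts in Vps15KO EBSS, 633, 590.2 and 546 in WT EBSS, 249.98, 263 and 263 in Vps15KO basal and 590.2, 514 and 569.8 in WT basal libraries. Every Vps15KO library was below every WT library, and the media overlapped in each genotype. Vps15KO was lower, with a log2 difference of -1.11 ± 0.08 in EBSS (adjusted p = 2.52e-09), 44.0% of the WT mean, and of -1.03 ± 0.08 in basal medium (adjusted p = 6.93e-09), 46.3%. Its EBSS differences were 0.00 ± 0.08 in Vps15KO and 0.08 ± 0.08 in WT (adjusted p = 0.992 and 0.44). With length and GC trends removed they were -0.29 in Vps15KO (adjusted p = 0.00346) and -0.26 in WT (adjusted p = 0.00598).

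Rab39b had 411, 388 and 397 normalized counts in Vps15KO EBSS, 218, 183 and 199 in WT EBSS, 424, 346 and 367 in Vps15KO basal and 162, 132 and 163 in WT basal libraries. Every Vps15KO library was above every WT library. Vps15KO was higher by 0.91 ± 0.10 in EBSS (adjusted p = 2.09e-07), 1.99 times the WT mean, and 1.18 ± 0.10 in basal medium (adjusted p = 7.63e-09), 2.48 times. The EBSS difference was 0.07 ± 0.10 in Vps15KO (adjusted p = 0.546), and EBSS raised it in WT by 0.34 ± 0.10 (adjusted p = 0.00451), a call lost without both WT libraries that stand apart (0.20, adjusted p = 0.0766) or after removing trends with length and GC (0.19, adjusted p = 0.0569).

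Rab33b, which binds the autophagy protein Atg16l1 at the Golgi, responded to EBSS in both genotypes. It had 1121, 1096 and 1071 normalized counts in Vps15KO EBSS, 1002, 999 and 958 in WT EBSS, 581, 508 and 602 in Vps15KO basal and 661, 609.7 and 606 in WT basal libraries. EBSS libraries lay well above basal ones in each genotype. The rise was 0.93 ± 0.07 in Vps15KO (adjusted p = 3.88e-09) and 0.64 ± 0.07 in WT (adjusted p = 3.35e-07). The difference of 0.29 ± 0.10 (adjusted p = 0.0464) was lost on leaving out any of 9 single libraries (adjusted p up to 0.133). Rab36, a Golgi gene that acts on lysosome position, had 143, 175 and 146 counts in Vps15KO EBSS, 232, 251 and 243 in WT EBSS, 113, 103 and 113 in Vps15KO basal and 158, 175 and 181 in WT basal libraries. It was lower in Vps15KO in EBSS (-0.57 ± 0.09, adjusted p = 3.38e-05) and in basal medium (-0.54 ± 0.09, adjusted p = 6.66e-05), and EBSS raised it in Vps15KO (0.41 ± 0.09) and in WT (0.44 ± 0.09).

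Rab1a and Rab1b, which both drive ER to Golgi transport and act early in autophagosome formation, moved in opposite directions in all 4 comparisons between groups. Rab1a had 9653, 9726 and 10395 normalized counts in Vps15KO EBSS, 7976, 8197 and 8376 in WT EBSS, 7369, 7166 and 7561 in Vps15KO basal and 6072, 5183 and 6269.8 in WT basal libraries. Rab1b had 2589, 2821 and 2803 in Vps15KO EBSS, 3157, 3378 and 3178 in WT EBSS, 3709, 3616 and 3495 in Vps15KO basal and 4266, 5012 and 3928 in WT basal libraries. No group overlapped another for either gene. EBSS raised Rab1a by 0.43 ± 0.07 in Vps15KO and 0.49 ± 0.07 in WT and lowered Rab1b, with a log2 difference of -0.39 ± 0.07 and -0.43 ± 0.07 (adjusted p at most 0.000219). In Vps15KO cells Rab1a was higher by 0.28 ± 0.07 in EBSS and 0.34 ± 0.07 in basal medium. Rab1b was lower in them, with log2 differences of -0.24 ± 0.07 in EBSS and -0.28 ± 0.07 in basal medium (adjusted p at most 0.00952 for both genes). The Rab1b fall in EBSS was lost without Vps15KO EBSS replicate 1 (-0.20, adjusted p = 0.0539), and the fall in basal medium was -0.18 (adjusted p = 0.00774) without WT basal replicate 2. With length and GC trends removed, Vps15KO differed by 0.17 in EBSS and 0.18 in basal medium for Rab1a and by -0.13 in basal medium for Rab1b, and the EBSS fall of Rab1b was -0.26 in Vps15KO and -0.19 in WT, all still called. How the counting handled reads shared between such paralogs is not given in the sources used here, and its part in these values was not tested.

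The other ER and Golgi genes had smaller differences. Rab2a and Rab2b were lower in Vps15KO under EBSS (-0.36 ± 0.05 and -0.34 ± 0.08, adjusted p = 1.38e-05 and 0.001), and EBSS raised Rab2b in both genotypes (0.40 ± 0.08 in Vps15KO, 0.57 ± 0.08 in WT). Rab6a rose with EBSS in WT (0.36 ± 0.07, adjusted p = 0.000328), while Rab6b fell with EBSS in Vps15KO (-0.24 ± 0.06) and in WT (-0.23 ± 0.06). On the other strand Rab2b overlaps Tox4, which averaged 2422 counts in Vps15KO EBSS, 2316 in WT EBSS, 2194 in Vps15KO basal and 1910 in WT basal libraries. Rab6a likewise overlaps Mrpl48, at 499.7, 645, 539 and 581 counts in the same order. The part of these overlaps in the Rab values was not tested. Rab43 had an EBSS difference of -0.06 ± 0.06 in Vps15KO and rose by 0.27 ± 0.06 in WT, a difference of -0.32 ± 0.09 (adjusted p = 0.0156) that was lost without Vps15KO EBSS replicate 2 (-0.28, adjusted p = 0.0554). Rab34 passed no test, and the rise of Rab18 with EBSS in WT (0.23 ± 0.09, adjusted p = 0.0374) was lost without any of 3 single libraries and was 0.09 without WT basal replicate 2.

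Of 8 exocytic and polarised transport genes tested, EBSS raised 2 and lowered 5 in Vps15KO (25.9% and 26.1% of all genes). In WT cells it raised 1 and lowered 4 (31.4% and 31.3%). Rab3a, which acts in regulated secretion of vesicles, had 207, 252 and 245 normalized counts in Vps15KO EBSS, 212, 267 and 241 in WT EBSS, 439, 434 and 491 in Vps15KO basal and 427, 449 and 459 in WT basal libraries. The media were far apart and the genotypes overlapped. EBSS lowered Rab3a, with a log2 difference of -0.88 ± 0.09 in Vps15KO (adjusted p = 2.8e-07) and -0.83 ± 0.09 in WT (adjusted p = 3.77e-07), and the log2 differences for Vps15KO were -0.03 ± 0.09 in EBSS and 0.03 ± 0.09 in basal medium (adjusted p = 0.829 and 0.802). Rab3a overlaps Mpv17l2 on the other strand, which averaged 454 counts in Vps15KO EBSS, 438 in WT EBSS, 615 in Vps15KO basal and 538 in WT basal libraries. Rab3d, also of secretory vesicles, fell in all 4 comparisons between groups, with log2 differences of -0.37 to -0.27. Its fall with EBSS in WT was lost without both WT libraries that stand apart (-0.20, adjusted p = 0.054). Rab3b was higher in Vps15KO in basal medium (0.37 ± 0.08, adjusted p = 0.00055).

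Rab10 and Rab13, which serve transport to the plasma membrane and cell junctions, went opposite ways. Rab10 rose with EBSS by 0.31 ± 0.08 in Vps15KO and 0.53 ± 0.08 in WT, and in Vps15KO by 0.27 ± 0.08 in EBSS and 0.49 ± 0.08 in basal medium (adjusted p at most 0.00641). Its antisense transcript Rab10os averaged 360.1 counts in Vps15KO EBSS, 303 in WT EBSS, 113 in Vps15KO basal and 111 in WT basal libraries. Rab13 fell with EBSS, with log2 differences of -0.21 ± 0.08 in Vps15KO and -0.41 ± 0.08 in WT, and fell in Vps15KO, with -0.30 ± 0.08 in EBSS and -0.50 ± 0.08 in basal medium (adjusted p at most 0.0403), and the fall with EBSS in Vps15KO was lost without any of 5 single libraries and after removing length and GC trends (-0.11, adjusted p = 0.185). Rab8a fell with EBSS in WT (-0.35 ± 0.07, adjusted p = 0.000286), whereas Rab8b rose with EBSS in Vps15KO (0.25 ± 0.06, lost with length and GC trends removed at 0.07, adjusted p = 0.301) and was higher in Vps15KO under EBSS (0.27 ± 0.06, adjusted p = 0.00134). Rab37 passed no test at 13.8 to 22.4 counts.

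Rab40c, the substrate adaptor of a ubiquitin ligase, was the member with the smallest p-value for the difference of EBSS effects. It had 859, 857 and 880.1 normalized counts in Vps15KO EBSS, 647, 671 and 605 in WT EBSS, 721, 806 and 736 in Vps15KO basal and 802, 915 and 809 in WT basal libraries. The WT EBSS libraries were below all others, and the genotypes overlapped in basal medium. EBSS raised it by 0.19 ± 0.07 in Vps15KO (adjusted p = 0.0278), a rise that was lost on leaving out any of 5 single libraries, and lowered it in WT (-0.38 ± 0.07, adjusted p = 0.000142). Vps15KO was higher in EBSS by 0.42 ± 0.07 (adjusted p = 5.29e-05). The effects differed by 0.57 ± 0.10 (adjusted p = 0.000663), between 0.50 and 0.62 over the alternatives. Of the other cilium and unclassified genes, Rab28, of the cilium, was higher in Vps15KO in EBSS (0.25 ± 0.06) and in basal medium (0.21 ± 0.06, a call lost after removing length and GC trends at 0.11, adjusted p = 0.095), and Rab23, a ciliary regulator of Hedgehog signalling, passed no test.

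**Figure D4:**
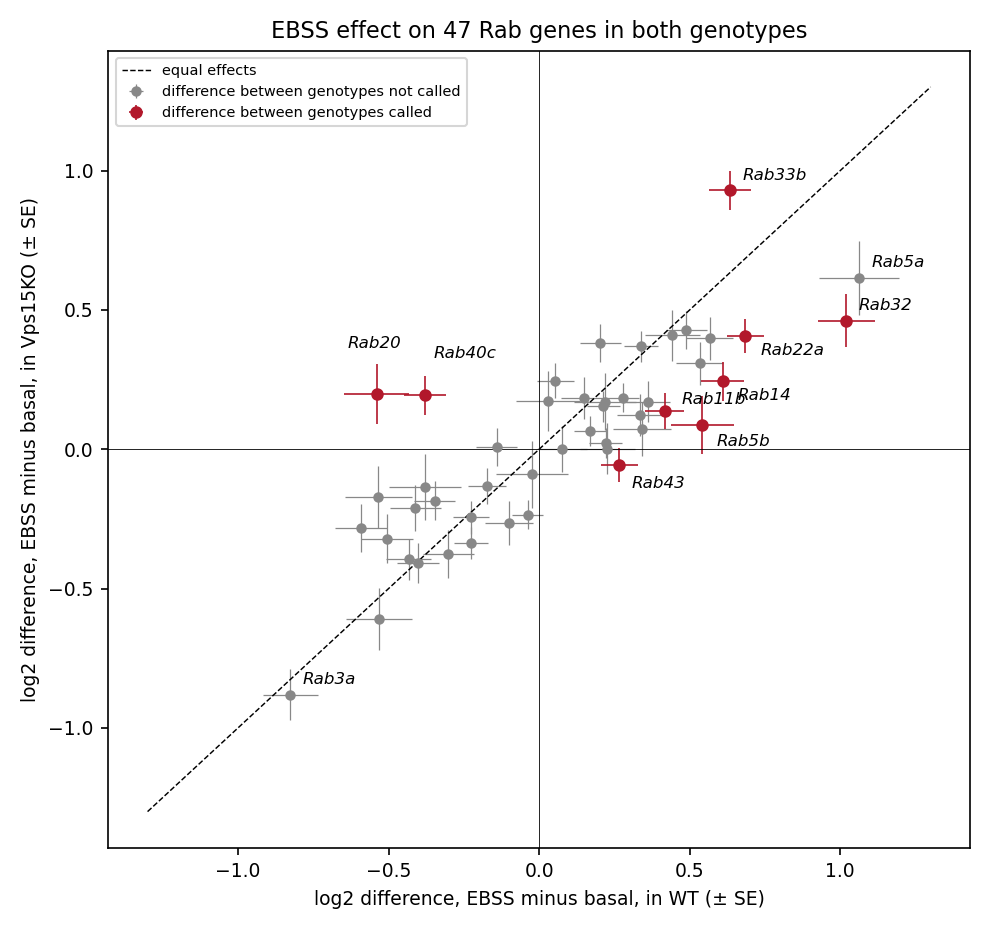
Log2 difference of EBSS minus basal medium in WT (horizontal) and in Vps15KO cells (vertical) for 47 Rab genes, with SE bars, a dashed line of equal effects and in red the 9 genes whose effects differed (adjusted p under 0.05, limma). Rab20 and Rab40c lie above 0 in Vps15KO and below 0 in WT, and Rab32, Rab14, Rab22a, Rab5b, Rab11b and Rab43 lie below the dashed line.

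The make-up of Rab subfamilies was also compared. Per kilobase, Rab1a made up 71.0 ± 0.902% of the Rab1 pair in Vps15KO EBSS, 63.1 ± 0.965% in WT EBSS, 58.0 ± 1.21% in Vps15KO basal and 47.4 ± 5.57% in WT basal libraries (SD, n = 3 each), and no group overlapped another. The sum of the pair was 4942 ± 189, 4587 ± 102, 4491 ± 61.1 and 4367 ± 91.6 normalized counts per kilobase in the same order. Rab11a made up 67.4 ± 2.25% of Rab11 in Vps15KO EBSS, 49.99 ± 0.983% in WT EBSS, 74.3 ± 0.819% in Vps15KO basal and 61.0 ± 1.42% in WT basal libraries. Here the sum fell as well, to 1093 ± 29.2 in Vps15KO EBSS against 1531 ± 53.8 in WT EBSS, and to 1255 ± 35.7 in Vps15KO basal against 1469.9 ± 48.9 in WT basal libraries. Rab5a made up 24.9 ± 1.86% of Rab5 in Vps15KO EBSS and 23.8 ± 0.736% in WT EBSS, against 16.3 ± 0.718% in Vps15KO basal and 14.1 ± 2.99% in WT basal libraries. In Rab3, the share of Rab3a was 40.9 ± 3.07% in Vps15KO EBSS and 40.3 ± 1.11% in WT EBSS, against 51.6 ± 0.964% in Vps15KO basal and 51.9 ± 0.792% in WT basal libraries. These shares follow from the levels above and were not tested separately.

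**Figure D5:**
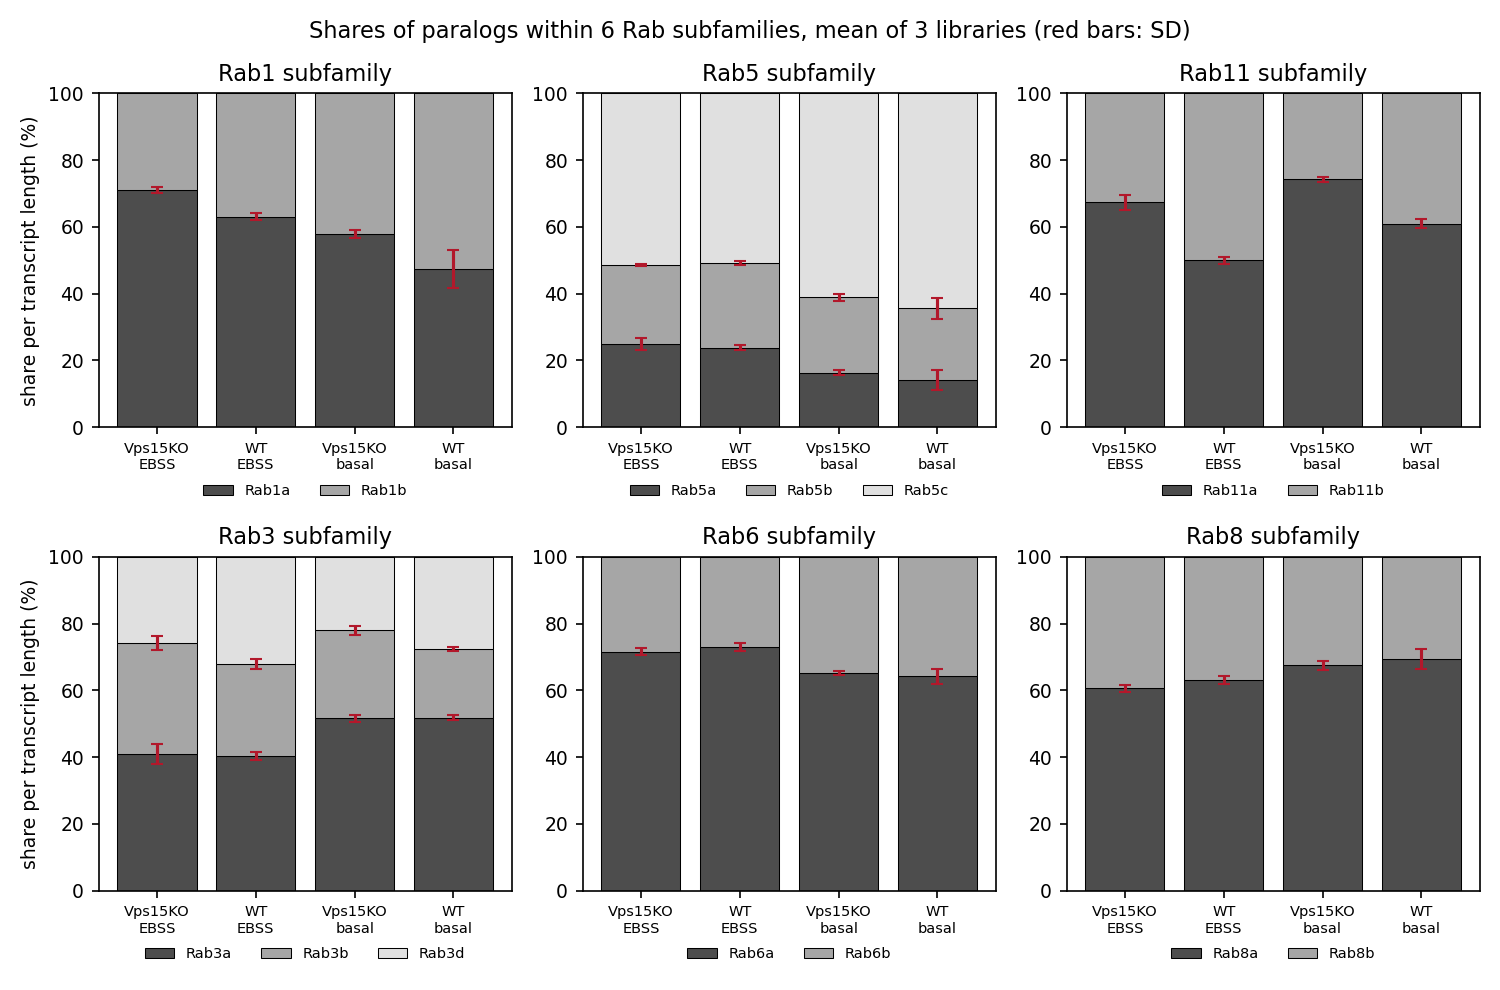
Share of each paralog in the normalized count per kilobase of 6 Rab subfamilies (vertical axis, percent) by group, as the mean of 3 libraries with SD in red at each boundary. Rab1a holds 71.0% of Rab1 in Vps15KO EBSS and 47.4% in WT basal cells, and Rab11a holds 74.3% of Rab11 in Vps15KO basal and 49.99% in WT EBSS cells.

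The genes that switch and read Rab proteins were counted from lists of exchange factors, GAPs, prenylation genes and effectors. The alternatives, such as leaving out a library or removing length and GC trends, were examined for Rab genes only. How far the values of these lists depend on them was not tested. For EBSS, 25.9% of all genes were higher and 26.1% lower in Vps15KO, and 31.4% and 31.3% in WT cells. For Vps15KO, 29.4% were higher and 27.8% lower in EBSS, and 29.3% and 29.2% in basal medium. Of 51 effectors tested, EBSS raised 28 and lowered 7 in Vps15KO and raised 27 and lowered 13 in WT cells, where 52% and 62.7% of all genes were called. The median log2 differences were 0.21 in Vps15KO and 0.22 in WT, against -0.02 in each for all genes. Vps15KO had 20 higher and 9 lower in EBSS and 20 higher and 11 lower in basal medium. In either direction this was 56.9% and 60.8% of the list, near the 57.2% and 58.5% of all genes. In both media more of the list was higher than lower. Eea1, the tether that binds Rab5 and PI3P on early endosomes, was higher in Vps15KO in EBSS (973 ± 51.1 normalized counts against 577 ± 43.0 in WT, log2 difference 0.73 ± 0.08, adjusted p = 5.02e-07) and in basal medium (744 ± 29.6 against 388 ± 43.9, 0.90 ± 0.08, adjusted p = 3.73e-08). Optn, an autophagy receptor that binds Rab8, was higher in Vps15KO in EBSS (0.95 ± 0.08) and in basal medium (0.99 ± 0.08), and Rab11fip1, an effector of Rab11, in EBSS (1.06 ± 0.08) and in basal medium (0.72 ± 0.08). Plekhm2, which links lysosomes to kinesin, rose with EBSS in Vps15KO (0.88 ± 0.07) and in WT (1.07 ± 0.07), as did Rbsn, a further effector that binds PI3P and Rab5 (0.78 ± 0.07 and 0.86 ± 0.07). Plekhm1, an adaptor of Rab7, fell with EBSS in Vps15KO (-0.38 ± 0.07) and in WT (-0.81 ± 0.07). Rabep2, a partner of Rab5, had 760 ± 40.9 counts in Vps15KO EBSS, 762 ± 77.8 in WT EBSS, 563 ± 19.3 in Vps15KO basal and 1050 ± 104 in WT basal libraries, and its EBSS effects differed by 0.86 ± 0.12 (adjusted p = 5.64e-05).

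Of 44 exchange factors tested, EBSS raised 18 and lowered 10 in Vps15KO and raised 19 and lowered 14 in WT cells (52% and 62.7% of all genes called), and Vps15KO had 20 higher and 7 lower in EBSS and 19 higher and 10 lower in basal medium (57.2% and 58.5%). The Rab5 exchange factors Rin1 and Rin2 went opposite ways. Rin2 had 2847 ± 215 normalized counts in Vps15KO EBSS against 7461 ± 312 in WT EBSS, and 2584 ± 222 in Vps15KO basal against 6047 ± 26.0 in WT basal libraries, log2 differences of -1.38 ± 0.07 and -1.22 ± 0.07 (adjusted p = 9.41e-12 and 5.45e-11). Rin1 had 1540.4 ± 26.5 in Vps15KO EBSS against 677 ± 94.7 in WT EBSS, and 2048 ± 81.0 in Vps15KO basal against 1252 ± 22.5 in WT basal libraries, log2 differences of 1.16 ± 0.08 and 0.70 ± 0.08 (adjusted p = 5.36e-10 and 4.99e-07). Ric1, part of the Rab6 exchange factor, rose with EBSS in Vps15KO (0.95 ± 0.10) and in WT (1.31 ± 0.10), and so did Dennd4a, which acts on Rab10 (0.75 ± 0.09 and 0.88 ± 0.09). Mon1a, a subunit of the exchange factor of Rab7, fell with EBSS in Vps15KO (-0.26 ± 0.09) and in WT (-0.83 ± 0.09), a difference of 0.57 ± 0.13 (adjusted p = 0.00512). Hps4, a subunit of the exchange factor of Rab32 and Rab38, had 556 ± 28.4 counts in Vps15KO EBSS, 345 ± 17.3 in WT EBSS, 523 ± 30.4 in Vps15KO basal and 596 ± 36.4 in WT basal libraries, and its EBSS effects differed by 0.83 ± 0.11 (adjusted p = 3.23e-05).

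Of 39 GAPs tested, EBSS raised 15 and lowered 9 in Vps15KO and raised 13 and lowered 13 in WT cells (52% and 62.7% of all genes called). Vps15KO had 12 higher and 7 lower in EBSS, 48.7% of the list against 57.2% of all genes, and 12 higher and 13 lower in basal medium (58.5% of all genes). Tbc1d31, a TBC domain protein of centriolar satellites, had 1902 ± 74.5 normalized counts in Vps15KO EBSS against 557 ± 35.6 in WT EBSS, and 1662 ± 35.9 in Vps15KO basal against 666 ± 54.1 in WT basal libraries, log2 differences of 1.72 ± 0.07 and 1.29 ± 0.07 (adjusted p = 7.98e-13 and 3.66e-11). Tbc1d2, a GAP of Rab7, was higher in Vps15KO in EBSS (1.01 ± 0.11) and in basal medium (0.996 ± 0.113). Tbc1d15, also a GAP of Rab7, rose with EBSS in Vps15KO (0.70 ± 0.08) and in WT (1.13 ± 0.08) and was higher in Vps15KO in EBSS (0.43 ± 0.08) and in basal medium (0.85 ± 0.08). Tbc1d9 rose with EBSS to 756 ± 24.5 counts in Vps15KO EBSS, against 258 ± 3.52 in Vps15KO basal libraries, and to 566 ± 25.1 in WT EBSS, against 194 ± 18.6 in WT basal libraries, log2 differences of 1.46 ± 0.08 and 1.43 ± 0.08. All 8 genes of prenylation and membrane recycling were tested. Vps15KO had 3 higher and none lower in EBSS and 4 higher and none lower in basal medium, shares of 37.5% and 50% against 57.2% and 58.5% of all genes, led by Rabggtb, the catalytic beta subunit of Rab geranylgeranyl transferase, at 0.82 ± 0.07 in EBSS and 0.67 ± 0.07 in basal medium (adjusted p = 5.39e-09 and 9.25e-08). Chm, the escort protein of prenylation, rose with EBSS in Vps15KO (0.67 ± 0.16) and in WT (1.118 ± 0.163). Its WT basal libraries had 456, 235 and 449 normalized counts, so the low value of WT basal replicate 2 enlarges the WT rise.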

How the data were processed

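The deposited table holds log2 values from the authors, with the form of variance-stabilized counts after scaling by size factors, in 12 columns. Per the submitters' processing notes, STAR 2.7.10b, featureCounts, DESeq2 and limma were used with the build mm10; their settings, and the use of strand in counting, are not given in the sources used here. The floor of the table, 3.83, is a count of 0. The transformation was inverted from it, and 100% of values gave whole reads within 0.001 reads; 2732 genes were at 0 in all libraries.

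The 14279 genes whose average exceeded the floor by 1 or more were fitted with limma 3.58.1 in R 4.3.3, with a mean per group and a trend of variance with mean (8 residual and 10.2 prior degrees of freedom). Tests were two-sided, with Benjamini-Hochberg adjustment over all genes within each of 5 comparisons and calls at adjusted p under 0.05. Log2 differences are on the deposited scale and understate changes of low genes. Levels per kilobase use the longest GENCODE vM21 transcript, found for all 59 Rab genes. Positions are from RefSeq GRCm38.p6, which matched all 59, as are promoter windows, found for 48. Replicate numbers were not taken to pair libraries, by a rule that asked for a correlation of residuals over 0.1 for all 3 numbers of a comparison. Between genotypes these were 0.124, 0.039 and 0.118 in EBSS and 0.0905, 0.26 and 0.0825 in basal medium. They are all positive, so whether the libraries are paired is not settled by this rule.

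The Rab genes, their grouping by compartment and the lists of regulators were chosen with earlier results of these data known. Values by library are given for Rab5a, Rab5b, Rab5c, Rab7 and Rab11a and for Rab genes with the 6 largest called differences in each comparison; of each regulator list, up to 4 genes with the smallest p in a comparison could be named, and those with the clearest roles are given. Alternatives were a replicate block, dropping the filter, raising it to 3, quantile normalization, log2 of the normalized count plus 1, voom, only the groups compared, length and GC trends removed (for 13702 genes), each library left out in turn, and leaving out WT basal replicate 2 together with WT EBSS replicate 1. The fit was also run on simulated data, in which few genes changed, only in WT EBSS libraries, and no library stood apart. That setting differs from these data, so the simulation does not show how the fit performs on them. The depth of 21278921 to 21698584 reads per library sets the counting error.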

Additional observations from a re-analysis of the deposited data

Results flagged for a closer look

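The EBSS effect differed between genotypes for 9 Rab genes by the interaction term of the limma fit, given here as the log2 effect in Vps15KO minus that in WT. Rab20 (0.74) and Rab40c (0.57) had positive EBSS differences in Vps15KO cells and fell in WT cells. Rab33b (0.29) rose in both, by more in Vps15KO cells. Rab32 (-0.56), Rab14 (-0.37) and Rab22a (-0.28) rose in both, by less in Vps15KO cells. Rab5b (-0.45), Rab11b (-0.28) and Rab43 (-0.32) did not pass the test in Vps15KO cells and rose in WT cells. Over all alternatives, Rab20, Rab40c, Rab14 and Rab32 kept their calls. Rab genes had 9 such calls of 47, where 17.8% of all genes tested did.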

How the results depend on the processing

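Counts of Rab genes called stayed within 1.5 times under every alternative for EBSS in either genotype and for Vps15KO in either medium. For the difference of EBSS effects, leaving out single libraries gave 2 to 8 Rab genes with a more negative effect in Vps15KO and 2 to 4 with a more positive one. Over the same leave-outs the share of all genes called in either direction ran from 13% to 22.2%, the highest being without WT basal replicate 2. The replicate block treats libraries of the same number as paired, which the labels do not state. With it, the counts higher and lower were 15 and 13 for EBSS in Vps15KO, 22 and 16 for EBSS in WT, 19 and 9 for Vps15KO in basal medium, 12 and 11 for Vps15KO in EBSS, and 4 and 6 for the difference. With length and GC trends removed, values not called by the main test turned sign or, for Rab18 in WT, a called one did: for EBSS in Vps15KO, Rab18 -0.26 and Rab30 -0.29, and for EBSS in WT, Rab5c 0.14, Rab8b -0.20, Rab18 -0.10, Rab27b -0.30, Rab30 -0.26 and Rab34 0.13; the cause was not tested. A fit of only the groups compared is not applicable to the difference. With 3 libraries a group, many calls near a log2 difference of 0.2 were lost on leaving out 1 library, and for the difference of EBSS effects so were larger ones, without any of 7 libraries for Rab5b (-0.45), 8 for Rab22a (-0.28), and 9 for Rab33b (0.29) and Rab11b (-0.28). The median of all genes lay at -0.0543 or nearer to 0 under every alternative.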
